A study of Mus musculus with 7 samples.

Results

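The enzymes that place and remove acetyl groups on histones were followed in injured sensory ganglia of the mouse at a pair of clock times. The 10 genes were picked by name, with earlier results of these data known. They are the acetyltransferases Crebbp, Ep300, Kat2a and Kat2b, the class I deacetylases Hdac1, Hdac2 and Hdac3, and the class IIa deacetylases Hdac4, Hdac5 and Hdac9. Each symbol had exactly 1 entry among the 54309 genes of the deposited table, and all 10 members were above the limit on low values. The study asks how the time of day tunes the regrowth of axons. Dorsal root ganglia L4-6, which hold the cell bodies of the sensory neurons of the sciatic nerve, were taken 72 h after a sciatic nerve injury made at Zeitgeber time (ZT, hours from lights on) 20 or 8. All animals were C57bl/6 mice labelled male and 6 to 8 weeks old, and all ganglia, in both groups, came from injured mice and were enriched for neurons after dissociation. There were 4 samples at ZT20 and 3 at ZT8, with no uninjured sample in the series, so each value below is a level in injured ganglia. Since the nerve was injured and the ganglia were taken at one and the same ZT, effects of the time of injury and of the time of sampling cannot be told apart. The labels do not say how many animals were pooled in a sample, so p-values measure the spread between these samples.

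Acetylation of histone tails neutralizes their charge, opens chromatin and offers docking sites to bromodomain proteins, and deacetylases reverse it within corepressor complexes. CBP and p300 (Crebbp and Ep300) are related coactivators recruited by CREB and many other factors, and GCN5 and PCAF (Kat2a and Kat2b) are related enzymes that acetylate histone H3. The class I enzymes HDAC1, HDAC2 and HDAC3 are mainly nuclear. HDAC4, HDAC5 and HDAC9 shuttle between nucleus and cytoplasm, bind MEF2 factors and are held in the cytoplasm by 14-3-3 proteins after phosphorylation. In sensory neurons, PCAF and CBP have been linked to the induction of growth genes after axon injury, and injury drives HDAC5 out of the nucleus and changes the activity of HDAC3. HDAC3 is also the deacetylase that REV-ERB proteins recruit through NCOR in the molecular clock. These activities are set largely by location, phosphorylation and partners, and the table holds transcript levels only.

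Because the comparison is one of clock times, the promoter windows of the members were read for short clock and CREB elements, and the stretches shown are that of Crebbp, the member with a called rise, and the stretches around the matches found. RefSeq promoters (GRCm38.p6, 250 bases before to 50 after a gene start) were matched by symbol for 8 of the 10 genes, with 10 windows in all. Hdac1 and Hdac3 had none there. On either strand, CACGTG (the E-box bound by CLOCK and BMAL1) was in 1 of the 10 windows, that of Hdac5, against 7.15% of 32851 windows of the same length. AGGTCA (the half-site of nuclear receptors such as REV-ERB and ROR) was in 1, a window of Hdac9, against 16.3%, and TGACGTCA (the full CRE bound by CREB) in 0, against 1.79%. The Hdac5 match begins at base 4 after the gene start, and the Hdac9 match, read on the gene's strand as TGACCT, begins 120 bases before a start of that gene. The 250 bases before the Crebbp start are 84% G or C and hold 44 CpG dinucleotides. Capitals mark the matched letters, each sequence is on the gene's strand, and a match is a description of letters only. The coordinates are chr16:4213405-4213654 for Crebbp, chr11:102230152-102230181 for Hdac5 and chr12:34528992-34529021 for Hdac9, all on the minus strand of GRCm38.p6.
Crebbp: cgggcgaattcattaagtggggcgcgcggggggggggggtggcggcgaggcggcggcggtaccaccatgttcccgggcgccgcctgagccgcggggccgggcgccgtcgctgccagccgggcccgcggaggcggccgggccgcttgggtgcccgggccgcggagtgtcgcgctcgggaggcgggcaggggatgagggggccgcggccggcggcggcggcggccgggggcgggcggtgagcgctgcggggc
Hdac5: tcggggtcgggtCACGTGacgagagtgacg
Hdac9: ctcggccatgctTGACCTatttttggctca

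Several features of the libraries move with the groups and touch the members. Levels are in TPM, a measure of transcripts per length that is scaled to the same sum in every sample, so the depth behind each value is unknown. Genes above 0 TPM numbered 24192 to 25238 at ZT20 and 18297 to 22973 at ZT8, with ZT8 replicate 2 the lowest. Long transcripts were relatively higher at ZT20: across 14745 genes, Spearman's rho between a gene's deviation in a sample and its transcript length was 0.155 to 0.455 in the ZT20 samples and −0.306 to −0.235 in the ZT8 samples. All 12 sensory neuron markers were present in each sample, with a summed level of 18546 to 23617 TPM at ZT20 and 14245 to 21705 TPM at ZT8. The 7 satellite glia markers summed to 7493 to 9157 TPM at ZT20 and 12764 to 15483 TPM at ZT8, without overlap. Libraries labelled male at ZT20 went against that label: the 4 Y-linked genes checked summed to 0.0162 and 0.00868 TPM in replicates 3 and 4, where Xist was at 2.21 and 2.30 TPM. Replicate 2 held both signals, with a Y-linked sum of 33.1 TPM and Xist at 1.08 TPM. In the ZT8 samples the Y-linked sum was 61.1 to 84.6 TPM. Values without these libraries are given below for the members that passed and for those that moved most. Library identifiers are numbers at ZT20 and letters at ZT8, and what that scheme marks cannot be told apart from the clock time.

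In these ganglia 2 of the 10 members differed between the clock times: Crebbp was higher and Hdac1 lower at ZT20. Crebbp was 2.45 times as high by mean TPM, and Hdac1 was at 0.700 of its ZT8 mean. The other 8 members did not pass the test (limma on log2(TPM + 1) with Benjamini-Hochberg adjustment over all 14800 tested genes, adjusted p under 0.05). Over all tested genes the same test called 16.4%, of which 12.8% were higher and 3.61% lower at ZT20 as shares of all tested genes, so 1 member in each direction out of 10 is a share close to that background. The split of all called genes, 1899 higher and 534 lower, was 1128 and 1160 under median-ratio scaling and 1023 and 814 under quantile normalization. The groups' ranges were apart for 3 of the 10 members, beside 33.2% of all tested genes. The median log2 difference of the members was 0.37, beside 0.23 for all tested genes, and 7 of the 10 differences were above 0, beside 66.4% of all tested genes. Without ZT20 replicates 3 and 4, the libraries without Y-linked transcripts, limma called 0 members and 0 of all tested genes, with 2 members and 2425 of all genes at an unadjusted p under 0.05.

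**Figure D1:**
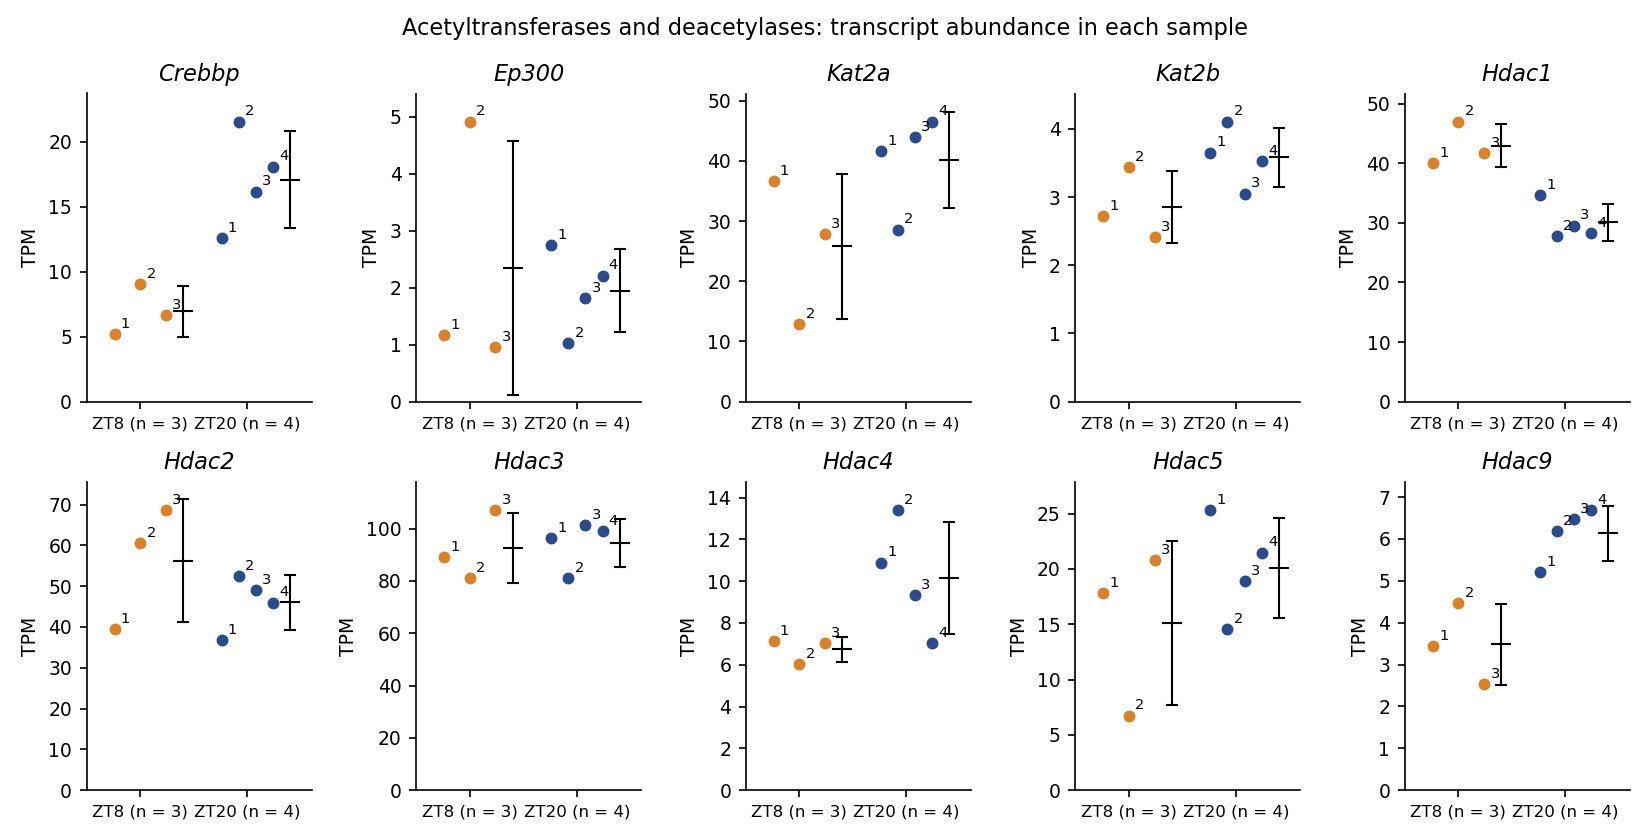
Transcript abundance (TPM, axis from 0) of the 10 members in each ZT8 (orange) and ZT20 (blue) sample, with replicate numbers; the bar beside each group is its mean ± SD. The groups are apart for Crebbp, Hdac1 and Hdac9, while the point of ZT8 replicate 2 is the highest for Ep300 and the lowest for Kat2a and Hdac5.

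Levels of the members, averaged over the 7 samples, spanned from 93.6 ± 10.1 TPM (SD, n = 7) for Hdac3 to 2.12 ± 1.40 TPM (SD, n = 7) for Ep300. Hdac2 (50.4 ± 11.3 TPM), Hdac1 (35.6 ± 7.52 TPM) and Kat2a (34.01 ± 11.8 TPM, SD, n = 7 each) came after Hdac3. Hdac5 (17.9 ± 5.95 TPM), Crebbp (12.7 ± 6.13 TPM) and Hdac4 (8.69 ± 2.66 TPM, SD, n = 7 each) were in the middle of the order. Hdac9 (5.00 ± 1.59 TPM) and Kat2b (3.27 ± 0.581 TPM, SD, n = 7 each) came last before Ep300. The ranges over samples did not overlap between Hdac3 and Hdac2, and every other pair of neighbours in the order overlapped. Within samples, Kat2a was above Hdac5, Hdac4 above Hdac9 and Hdac9 above Kat2b in all 7. The order of Hdac1 and Kat2a was not the same in the groups: Hdac1 was the higher in all 3 ZT8 samples and Kat2a in all 4 ZT20 samples, a pattern noticed in these values and not tested. Crebbp was above Hdac4 in 5 of 7 samples, and Hdac5 above Crebbp likewise in 5 of 7. By class, the 4 acetyltransferases together held 55.3 to 70.4 TPM at ZT20 and 30.3 to 45.7 TPM at ZT8, and the 3 class IIa deacetylases 34.2 to 41.4 TPM and 17.2 to 30.3 TPM, without overlap in either class. The 3 class I deacetylases held 161 to 180 TPM at ZT20 and 169 to 217 TPM at ZT8, and overlapped. These sums are descriptions with no test, and the most abundant member of a class weighs most in them. Of single tested genes, 24.5% were apart with ZT20 higher. Kat2a, Hdac4 and Hdac5, which weigh most in the sums that were apart, each overlapped between the groups on their own. In bulk samples fewer cells of a type and less RNA per cell cannot be told apart, so these levels are averages over neurons and the glia that came with them.

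Among the acetyltransferases, Crebbp (ENSMUSG00000022521), which encodes the coactivator CBP, had 12.6, 21.6, 16.2 and 18.1 TPM in the ZT20 samples (replicates 1 to 4, an order kept throughout). The ZT8 samples had 5.18, 9.07 and 6.63 TPM (replicates 1 to 3). Every ZT20 sample was above every ZT8 sample, which was so for 24.5% of all tested genes. The means were 17.1 ± 3.76 TPM (SD, n = 4) and 6.96 ± 1.96 TPM (SD, n = 3), so that the log2 difference was 1.19 (standard error 0.24, 95% interval 0.64 to 1.74, limma adjusted p = 0.0158). The call was lost without ZT20 replicate 3 and without ZT20 replicate 4 (limma adjusted p = 0.0580 and 0.0575), with log2 differences of 1.21 and 1.15. Without both of those libraries, which lack Y-linked transcripts, the difference was 1.16 and the limma adjusted p was 0.212. Without ZT20 replicates 2, 3 and 4, so with 1 ZT20 sample that is assumed to vary like the ZT8 samples, it was 0.80 (limma adjusted p = 0.694).

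Crebbp also has the longest transcript of the 10 members (10820 nt in GENCODE M21). In the top decile of tested genes by transcript length, which also holds Ep300, Hdac4 and Hdac9, the median log2 difference was 0.69 and 36.5% of genes were called higher at ZT20. Once the trend of each sample with transcript length and GC content was removed, the Crebbp difference was 0.40 with a 95% interval of −0.19 to 0.99, and it no longer passed (limma adjusted p = 0.354). Under median-ratio scaling, which moved the median of all tested genes from 0.23 to 0.033, it was 0.97 and passed (limma adjusted p = 0.0408). Quantile normalization gave 0.86, which did not pass (limma adjusted p = 0.0622).

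Ep300 (ENSMUSG00000055024), the close relative of Crebbp, was low and varied widely at ZT8. The ZT20 samples had 2.75, 1.03, 1.81 and 2.21 TPM and the ZT8 samples 1.17, 4.92 and 0.952 TPM. The highest value of the gene was in ZT8 replicate 2, while the other ZT8 samples were below most of the ZT20 samples. The log2 difference was −0.024 with a 95% interval of −0.99 to 0.94 (limma adjusted p = 0.974). Without ZT8 replicate 2 the sign turned, to 0.48 (limma adjusted p = 0.257), and it also turned without ZT20 replicate 2 (0.14) and under 4 other alternatives, so Ep300 has no settled direction. At 2.12 TPM over all samples it was the lowest member, and the pseudocount of 1 narrows its differences.

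Kat2a (ENSMUSG00000020918), which encodes GCN5, the catalytic subunit of SAGA and ATAC, was at 41.6, 28.6, 44.0 and 46.5 TPM in the ZT20 samples and at 36.7, 12.9 and 27.8 TPM in the ZT8 samples. The groups overlapped through ZT20 replicate 2 and ZT8 replicate 1. The log2 difference was 0.71 with a 95% interval of −0.037 to 1.46 (limma adjusted p = 0.162). It was 0.30 without ZT8 replicate 2, the sample with the fewest genes above 0 and the lowest neuronal marker sum, and 1.02 without ZT8 replicate 1 (limma adjusted p = 0.365 and 0.0714). Kat2b (ENSMUSG00000000708), which encodes PCAF, was at 3.65, 4.11, 3.05 and 3.53 TPM at ZT20 and at 2.72, 3.44 and 2.42 TPM at ZT8. Its groups overlapped, and the log2 difference of 0.25 had a 95% interval of −0.24 to 0.75 (limma adjusted p = 0.435). Its sign turned under quantile normalization (−0.045) and after the length and GC correction (−0.18).

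Hdac1 (ENSMUSG00000028800), a class I deacetylase of the SIN3, NuRD and CoREST complexes, had 34.6, 27.8, 29.5 and 28.3 TPM in the ZT20 samples. The ZT8 samples had 40.1, 47.0 and 41.7 TPM. Every ZT20 sample was below every ZT8 sample, as for 8.72% of all tested genes. The means were 30.1 ± 3.13 TPM (SD, n = 4) and 42.9 ± 3.62 TPM (SD, n = 3), so that the log2 difference was −0.50 (standard error 0.14, 95% interval −0.82 to −0.19, limma adjusted p = 0.0414). The call was close to the threshold: leaving out any 1 of the 7 samples ended it, with limma adjusted p from 0.0536 to 0.117 and log2 differences from −0.57 to −0.44. The length and GC correction moved it little, to −0.53 with a 95% interval of −0.87 to −0.20 (limma adjusted p = 0.0584). It was −0.73 under median-ratio scaling and −0.69 under quantile normalization, and passed in both (limma adjusted p = 0.0203 and 0.0273). Its transcript is the shortest of the members (2038 nt), and in its length decile the median log2 difference was −0.017. The sums of the satellite glia markers and of 5 plasma cell markers (267 to 485 TPM at ZT20 and 496 to 933 TPM at ZT8) were lower at ZT20 without overlap, as Hdac1 was, and their part in the result was not tested. As single genes, 3 of 7 satellite glia markers and 1 of 4 tested plasma cell markers were called lower, and 0 higher, beside 3.61% of all tested genes called lower. With the neuronal marker score as a covariate Hdac1 was at −0.41 and did not pass (limma adjusted p = 0.199). Without ZT20 replicates 3 and 4 it was at −0.45, and without replicates 2, 3 and 4 at −0.30 (limma adjusted p = 0.319 and 0.752).

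Hdac2 (ENSMUSG00000019777), which shares those complexes with Hdac1, was at 36.7, 52.5, 49.0 and 46.0 TPM at ZT20 and at 39.5, 60.5 and 68.7 TPM at ZT8. ZT8 replicate 1 lay within the ZT20 range, and the log2 difference of −0.26 had a 95% interval of −0.74 to 0.22 (limma adjusted p = 0.410). The difference was below 0 under each of the 20 alternatives, from −0.56 to −0.097, and passed in none (limma adjusted p from 0.0986 to 0.799). The value of −0.56 was that without ZT20 replicates 2, 3 and 4. Hdac3 (ENSMUSG00000024454), the catalytic subunit of the NCOR complexes, was the most abundant member. It was at 96.2, 81.1, 101 and 99.0 TPM at ZT20 and at 89.2, 81.1 and 107 TPM at ZT8, so the ZT8 range enclosed nearly all of the ZT20 range. Its log2 difference of 0.034 had the 95% interval −0.28 to 0.35 (limma adjusted p = 0.883), and its sign turned under 8 of the 20 alternatives.

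Hdac9 (ENSMUSG00000004698) was the class IIa member whose groups did not overlap. The ZT20 samples had 5.21, 6.19, 6.47 and 6.69 TPM and the ZT8 samples 3.45, 4.47 and 2.54 TPM. The means were 6.14 ± 0.654 TPM (SD, n = 4) and 3.49 ± 0.965 TPM (SD, n = 3). The log2 difference of 0.69 (standard error 0.22, 95% interval 0.18 to 1.197) did not pass over all genes (limma adjusted p = 0.0671). Without ZT8 replicate 2 it was 0.84 and passed (limma adjusted p = 0.0227), in a fit that called 20.6% of all tested genes, 16% higher and 4.6% lower. The difference also passed with array weights (0.82, limma adjusted p = 0.0137) and without an intensity trend (0.69, limma adjusted p = 0.0474). These were the 3 of 20 alternatives in which Hdac9 was called. After the length and GC correction it was 0.055 with a 95% interval of −0.42 to 0.53 (limma adjusted p = 0.887), and the median of its length decile (0.69) was as large as its own uncorrected difference.

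Hdac4 (ENSMUSG00000026313), a repressor of MEF2 targets, was at 10.9, 13.4, 9.32 and 7.04 TPM at ZT20 and at 7.14, 6.03 and 7.04 TPM at ZT8. ZT20 replicate 4 lay within the ZT8 range, and the log2 difference of 0.50 (95% interval −0.024 to 1.02) did not pass (limma adjusted p = 0.160). Without ZT20 replicates 3 and 4 it was 0.76 (limma adjusted p = 0.253). Hdac5 (ENSMUSG00000008855), the deacetylase exported from the nucleus of injured sensory neurons, was at 25.3, 14.6, 18.9 and 21.5 TPM at ZT20 and at 17.8, 6.73 and 20.8 TPM at ZT8. Leaving aside ZT8 replicate 2, the ZT8 values lay inside the ZT20 range. Its log2 difference was 0.49 with a 95% interval of −0.32 to 1.31 (limma adjusted p = 0.352), and without ZT8 replicate 2 it was 0.032 (limma adjusted p = 0.930). Without ZT20 replicates 2, 3 and 4 it was 0.84 (limma adjusted p = 0.737). With the length and GC trend removed the differences of Hdac4 and Hdac5 were −0.23 and −0.13 (limma adjusted p = 0.601 and 0.781).

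**Figure D2:**
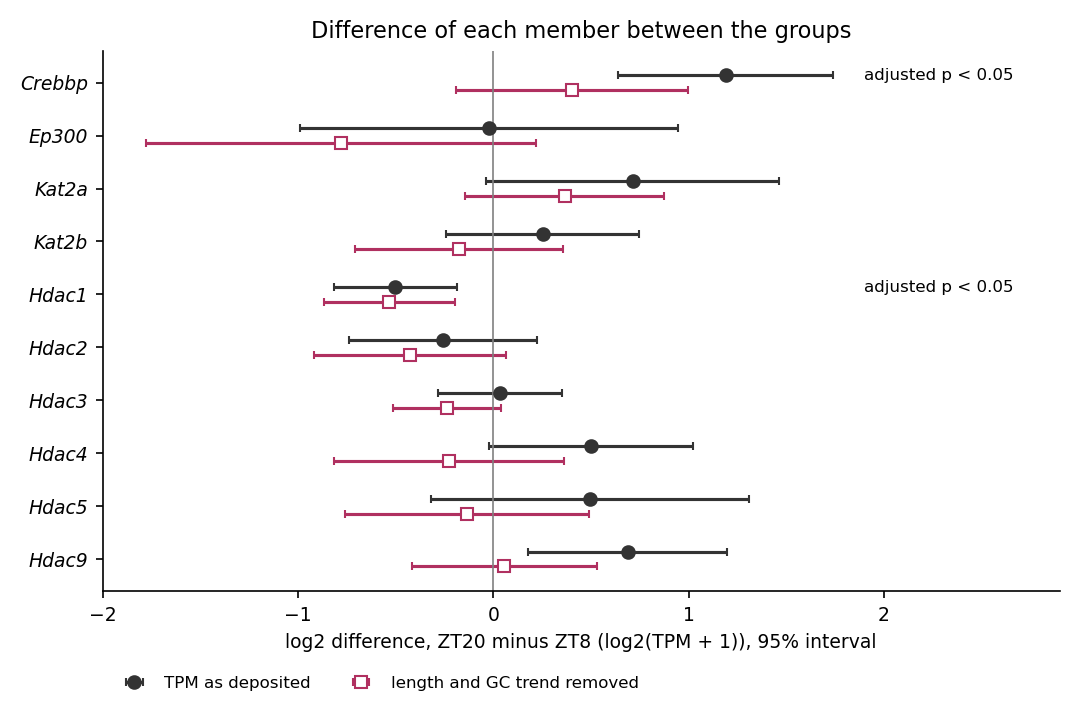
Log2 difference (ZT20 minus ZT8, log2(TPM + 1)) of each member with its 95% interval, from the deposited TPM (filled circles) and after the length and GC correction (open squares). Crebbp at 1.19 and Hdac1 at −0.50 pass from the deposited values; after the correction 0 members pass, Crebbp is at 0.40 and Hdac1 at −0.53.

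**Figure D3:**
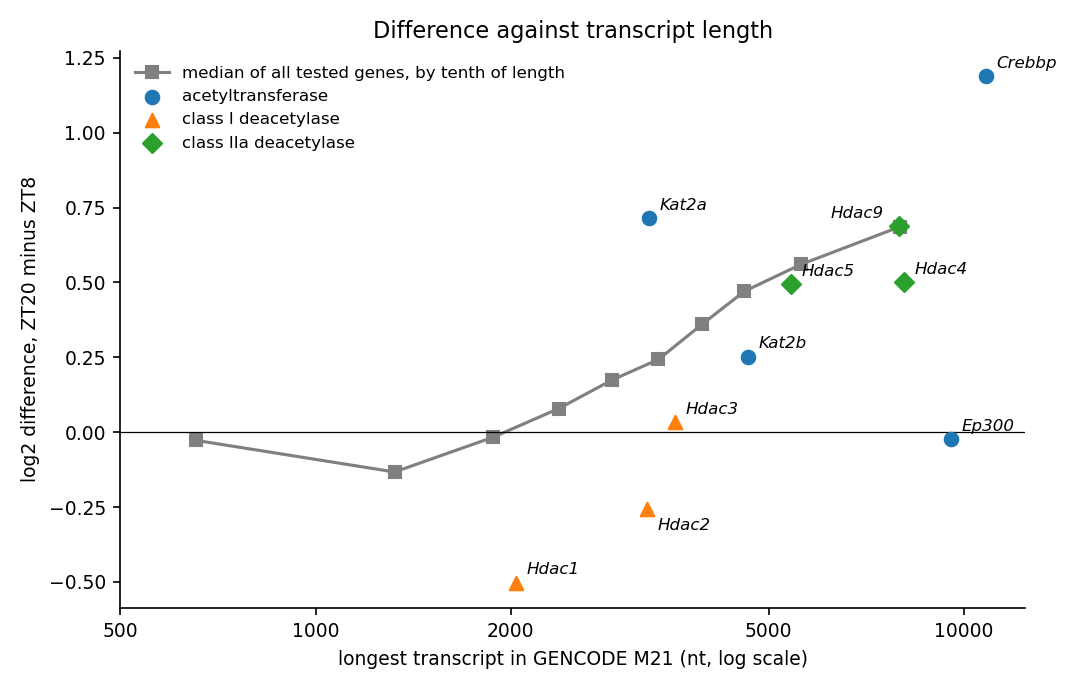
Log2 difference (ZT20 minus ZT8) of the 10 members against the length of the longest annotated transcript (log axis), with the median of all tested genes in each length decile (grey squares). Hdac9 lies at the median for its length (0.69), Crebbp above it, and Ep300 and the class I deacetylases Hdac1, Hdac2 and Hdac3 below the medians of their deciles.

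Against transcripts of like length the members thus sat on both sides of the median. Crebbp and Kat2a exceeded the median of their length decile, at 1.19 against 0.69 and 0.71 against 0.24. Hdac9 was at it, and the remaining 7 members were below it. The widest gap downwards was that of Ep300, at −0.024 against 0.69. After the correction 0 of the 10 members passed in limma, 1 had an unadjusted p under 0.05, and their median was −0.20 beside −0.0083 for all genes; the corrected fit called 8.84% of genes, 3.58% higher and 5.26% lower.

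ZT8 replicate 2 set the spread of several members. In that library Hdac5 (6.73 TPM) and Kat2a (12.9 TPM) had their lowest values of the series and Ep300 (4.92 TPM) and Hdac1 (47.0 TPM) their highest. The same library had the lowest sum of the sensory neuron markers, 14245 TPM, and the highest sum of 5 red blood cell markers, 9534 TPM, beside 951 to 6679 TPM in the other samples. In ZT20 replicate 2, Kat2a (28.6 TPM) and Hdac5 (14.6 TPM) were likewise the lowest of their group, and its neuronal marker sum, 18546 TPM, was too. With the neuronal marker score as a covariate, Crebbp was at 1.65 and passed (limma adjusted p = 0.0216), Hdac1 was at −0.41 and did not (limma adjusted p = 0.199), Hdac9 was at 1.05 (limma adjusted p = 0.0581), and Kat2a and Hdac5 turned to −0.27 and −0.64 (limma adjusted p = 0.550 and 0.117).

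Related members were then compared within each sample, as the log2 ratio of (TPM + 1). The pseudocount leaves some effect of a sample's scale in the ratios that hold the low members Ep300 and Kat2b. The Crebbp to Ep300 ratio had values of 1.85, 3.48, 2.61 and 2.57 in the ZT20 samples. In the ZT8 samples it had 1.51, 0.77 and 1.97. Crebbp was thus the more abundant of the pair in every sample, and the groups overlapped through ZT20 replicate 1 and ZT8 replicate 3. The difference of the group means was 1.21 (two-sided exact permutation test, p = 0.0857, adjusted p over the 5 ratios 0.429). With 35 ways to assign 4 and 3 samples, the smallest p the test allows is 0.0286, and the adjusted p of a lone ratio cannot go below 0.143, so no single pair could have passed. Kat2a to Kat2b differed by 0.46 (exact p = 0.457, adjusted 0.762) and Hdac1 to Hdac2 by −0.24 (exact p = 0.400, adjusted 0.762). Hdac4 to Hdac5 differed by 0.0051 (exact p = 0.971, adjusted 0.971) and Hdac9 to Hdac5 by 0.19 (exact p = 0.743, adjusted 0.929). In all 5 ratios the groups overlapped.

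**Figure D4:**
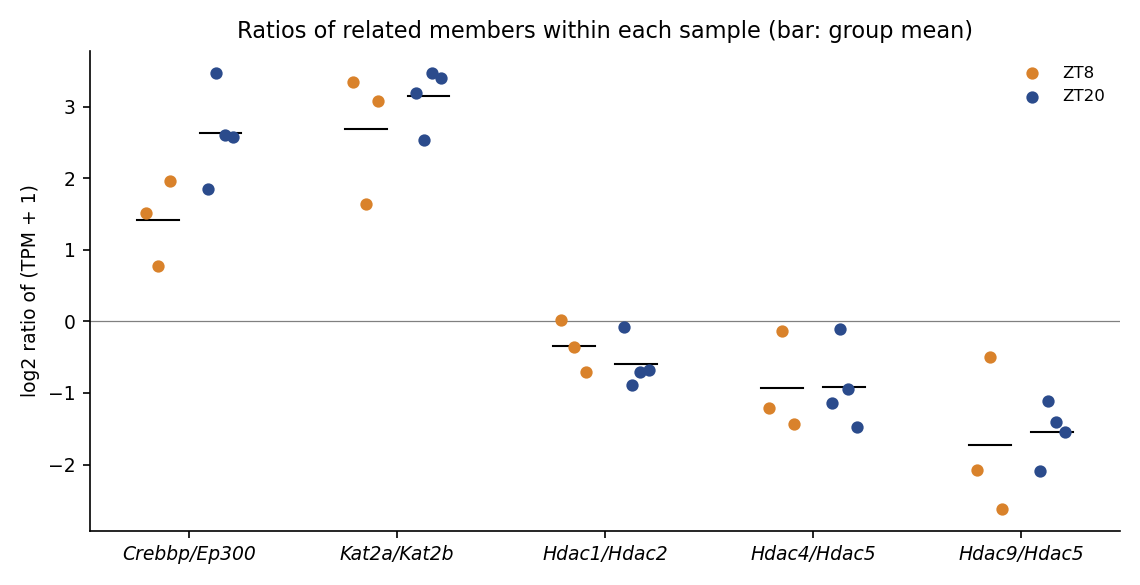
Log2 ratios of (TPM + 1) of 5 pairs of related members within each ZT8 (orange) and ZT20 (blue) sample; bars are group means. The Crebbp to Ep300 ratio has means of 2.63 at ZT20 and 1.42 at ZT8, and the groups overlap in all 5 pairs.

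The wider machinery of histone acetylation was read from lists of 122 other genes. The lists were chosen with earlier results of these data known, so their shares are descriptions and no test of an excess. Of the listed genes, 116 were tested. Of these 27 (23.3%) were called higher and 3 lower at ZT20, beside 12.8% and 3.61% of all tested genes, and the median log2 difference was 0.36 beside 0.23 for all tested genes. With the length and GC trend removed, 7 were called higher and 6 lower, beside 3.58% and 5.26% of all genes. The counts of single lists moved with the samples. With 1 of the 7 samples left out, those called higher ran from 0 to 3 of the other acetyltransferases, 0 to 3 of the other deacetylases, 3 to 11 of the corepressor subunits and 0 to 5 of the SAGA and ATAC subunits. They ran from 2 to 6 of the acetyl-lysine readers, 0 to 5 of the class IIa partners and kinases and 0 to 3 of the acetyl-CoA genes. In each list the lowest count was that without ZT20 replicate 3, and the 5 SAGA and ATAC subunits were called without ZT8 replicate 2. Values of list genes below are means ± SD over 4 ZT20 and 3 ZT8 samples. Among the genes outside the members that are named here and passed, Chd3, Bptf and Ncor1 also passed without any 1 of the 7 samples. Each of the others lost the call without ZT20 replicate 3, and most of them also without ZT20 replicate 4.

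Of the other acetyltransferases, 3 of 11 tested (27.3%, beside 12.8% of all tested genes) rose at ZT20 and 0 fell. The split turned with the scaling: 1 was called higher and 2 lower under median-ratio scaling, and 0 and 2 under quantile normalization. After the length and GC correction 0 were called in either direction. From the deposited values the called genes were Ncoa1 and Ncoa2, which encode steroid receptor coactivators (20.9 ± 2.42 against 12.0 ± 3.23 TPM and 6.80 ± 0.632 against 3.25 ± 0.786 TPM), and Taf1, the largest subunit of TFIID (14.1 ± 1.13 against 7.06 ± 1.19 TPM). Their log2 differences were 0.77, 0.89 and 0.92 (limma adjusted p = 0.0337, 0.0259 and 0.0140). Their longest transcripts have 7329, 8171 and 8054 nt, and after the length and GC correction they were at 0.12, 0.22 and 0.30 and did not pass (limma adjusted p = 0.745, 0.528 and 0.273).

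Of the other deacetylases, 3 of 11 (27.3%, beside 12.8%) rose and 1 fell. Here too the split depended on the setting, with 1 higher and 2 lower under median-ratio scaling, 1 and 0 under quantile normalization, 0 and 0 with the neuronal covariate, and 2 and 0 after the length and GC correction. Sirt5, a mitochondrial NAD-dependent deacylase, was at 30.04, 34.97, 34.4 and 33.8 TPM at ZT20 and at 16.3, 11.2 and 21.2 TPM at ZT8, a log2 difference of 1.03 (limma adjusted p = 0.0153). The groups were far apart, and the difference was 0.95 after the length and GC correction (limma adjusted p = 0.0193). Sirt6, a nuclear deacetylase of histone H3, had 14.2 ± 1.80 TPM against 4.98 ± 3.28 TPM, and its log2 difference of 1.55 was 1.48 after the correction (limma adjusted p = 0.0392 and 0.0411). ZT8 replicate 2 was at 1.27 TPM and the other ZT8 samples at 6.22 and 7.47 TPM. Hdac6, the tubulin deacetylase, was at 16.7 ± 2.10 and 10.02 ± 1.64 TPM, a log2 difference of 0.69 (limma adjusted p = 0.0366) that was 0.17 after the correction (limma adjusted p = 0.472). Sirt7, a nucleolar deacetylase, was lower at ZT20, at 55.3 ± 8.42 against 81.4 ± 11.01 TPM (log2 difference −0.55, limma adjusted p = 0.0468). After the correction it was at −0.88 and did not pass (limma adjusted p = 0.0518). Sirt7, Rbbp4, Ncor1, Crat, Eny2 and Atxn7 overlap other protein-coding genes in the annotation, so their reads are uncertain.

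Corepressor complexes, the scaffolds through which the class I members act, had 9 of 30 tested subunits higher (30%, beside 12.8% of all tested genes) and 1 lower (beside 3.61%) at ZT20. Under median-ratio scaling they were 9 and 1, under quantile normalization 6 and 1, with the neuronal covariate 4 and 0, and with the length and GC trend removed 3 and 2. Chd3, a NuRD remodeller, was at 34.2, 25.7, 30.5 and 31.9 TPM at ZT20 and at 11.1, 8.75 and 10.8 TPM at ZT8. Its log2 difference was 1.49, and 0.77 after the length and GC correction (limma adjusted p = 0.00274 and 0.0174). Mta1, another NuRD subunit, was at 6.38 ± 0.820 against 1.84 ± 1.40 TPM, a log2 difference of 1.53 (limma adjusted p = 0.0321). Tbl1x, a subunit of the NCOR complexes, was at 22.03 ± 2.06 against 11.6 ± 0.984 TPM (log2 difference 0.86, limma adjusted p = 0.0106). After the correction Mta1 was at 1.26 and Tbl1x at 0.37 (limma adjusted p = 0.0403 and 0.151). Rbbp4, a histone chaperone shared by NuRD and SIN3, fell, at 76.5 ± 4.08 against 106 ± 13.9 TPM (log2 difference −0.46, and −0.87 after the correction; limma adjusted p = 0.0421 and 0.00994). Ncor1, whose product activates HDAC3, was picked out after its values were seen. It was at 34.5 ± 1.42 against 17.9 ± 1.97 TPM, with a log2 difference of 0.91 (limma adjusted p = 0.00673). After the correction it was at 0.21 and did not pass (limma adjusted p = 0.339).

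Of the SAGA and ATAC subunits that carry Kat2a and Kat2b, 2 of 23 (8.7%, beside 12.8% of all tested genes) rose and 0 fell, while median-ratio scaling and quantile normalization each called 2 higher and 1 lower, and the length and GC correction 1 and 0. With array weights 6 were higher and 1 lower. They encode the SAGA ubiquitin protease and a partner of it; Eny2 and Atxn7, of the same module and looked up after the values were seen, were at 0.0072 and 0.56 and did not pass (limma adjusted p = 0.978 and 0.170). Usp22 was at 122 ± 11.8 against 75.6 ± 9.55 TPM (log2 difference 0.69, limma adjusted p = 0.0140) and Atxn7l3 at 26.6 ± 3.46 against 10.4 ± 4.95 TPM (log2 difference 1.38, limma adjusted p = 0.0235). After the correction they were at 0.26 and 0.99 (limma adjusted p = 0.126 and 0.0360). Acetyl-lysine readers had 4 of 13 tested genes higher (30.8%, beside 12.8%) and 0 lower, with all 13 differences above 0. Under median-ratio scaling 3 were higher, under quantile normalization 2 and with the neuronal covariate 1, and 0 were lower in each. Among those called, the BET protein gene Brd3, the NURF subunit gene Bptf and the YEATS protein gene Mllt3 had log2 differences of 0.82, 1.23 and 0.86 (limma adjusted p = 0.0215, 0.00997 and 0.0234). With the length and GC trend removed 0 of the readers passed in limma, and these were at 0.27, 0.44 and 0.36 (limma adjusted p from 0.224 to 0.265).

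Partners and kinases of the class IIa members had 4 of 19 tested genes higher (21.1%, beside 12.8%) and 1 lower (beside 3.61%). Under median-ratio scaling they were 3 and 1, under quantile normalization 3 and 0, and with the neuronal covariate 1 and 0. With the length and GC trend removed the split turned over, to 1 higher and 3 lower. Mef2d, a MEF2 factor that these deacetylases repress, was at 4.65, 3.91, 5.47 and 4.03 TPM at ZT20 and at 1.14, 0.984 and 1.75 TPM at ZT8 (log2 difference 1.27, limma adjusted p = 0.0120). The groups did not overlap, and after the correction it was at 0.69 (limma adjusted p = 0.0960). Genes of 14-3-3 proteins were called in both directions: Ywhag rose, at 868 ± 168 against 434 ± 113 TPM (log2 difference 1.01, limma adjusted p = 0.0203), and Ywhaq fell, at 640 ± 29.8 against 863 ± 74.0 TPM (log2 difference −0.43, limma adjusted p = 0.0272). Both kept their direction and passed after the correction, at 0.70 and −0.46 (limma adjusted p = 0.0281 and 0.0328). The other 14-3-3 genes tested, Ywhab, Ywhae, Ywhah, Ywhaz and Sfn, were not called. The most abundant of them, Ywhah, was at 3217 ± 1593 against 5670 ± 513 TPM (log2 difference −0.98, limma adjusted p = 0.123). The kinase gene Camk2d was at 146 ± 8.64 against 95.5 ± 12.1 TPM (log2 difference 0.62, limma adjusted p = 0.0153) and at 0.13 after the correction (limma adjusted p = 0.475). Of 9 genes that supply acetyl-CoA, 2 (22.2%, beside 12.8%) rose: Acly, the citrate lyase that makes nuclear and cytoplasmic acetyl-CoA, at 511 ± 75.3 against 314 ± 50.2 TPM, and Crat, a carnitine acetyltransferase, at 27.1 ± 4.47 against 13.6 ± 3.91 TPM. Their log2 differences of 0.70 and 0.96 (limma adjusted p = 0.0204 and 0.0228) were 0.26 and 0.52 after the correction (limma adjusted p = 0.171 and 0.0863). In this list 1 gene was also called lower under median-ratio scaling, and with the neuronal covariate 0 were higher and 2 lower. After the length and GC correction 0 were higher and 1 lower.

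**Figure D5:**
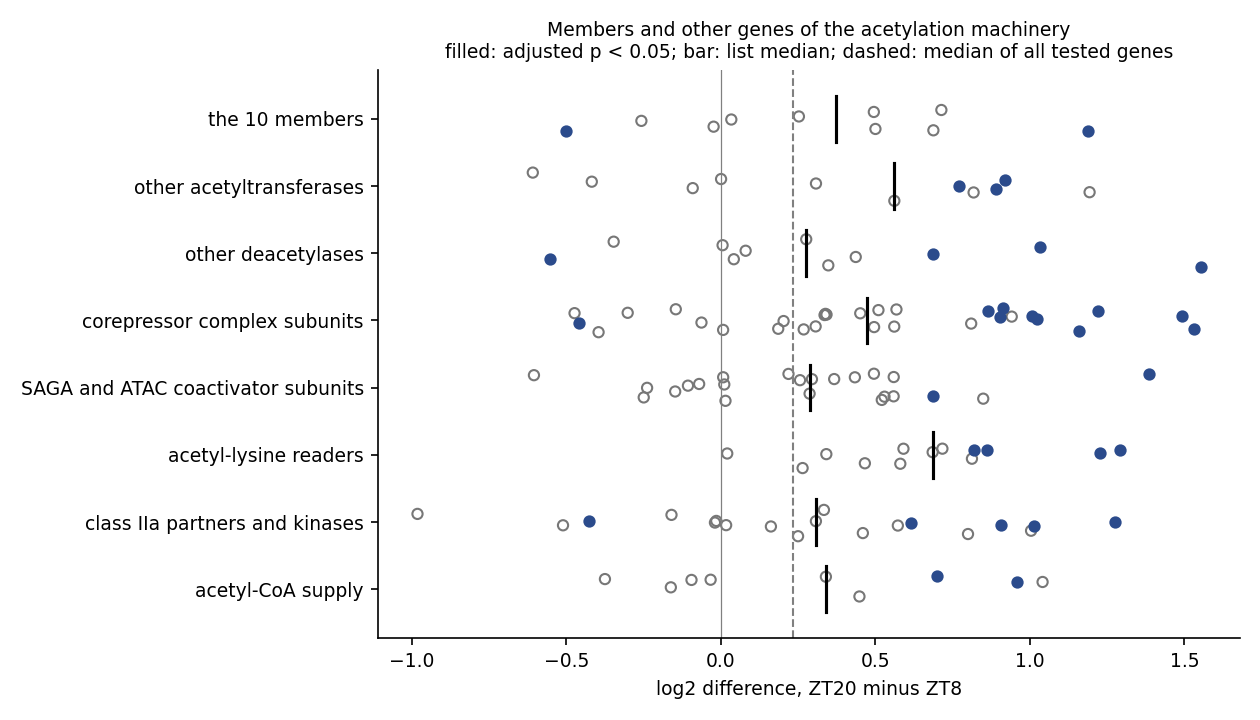
Log2 differences (ZT20 minus ZT8) of the 10 members and of the tested genes in 7 lists of the acetylation machinery, with list medians (bars) and the median of all tested genes, 0.23 (dashed line); filled points have an adjusted p under 0.05 by limma. Points called higher are in every list, and points called lower are Hdac1 among the members and Sirt7, Rbbp4 and Ywhaq in the lists.

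Genes with the profile most like that of Crebbp over the 7 samples were Otud4, Strn3 and 1810013L24Rik. Their root-mean-square distances from it, on gene-centred log2(TPM + 1), were 0.0836, 0.107 and 0.115, beside a median of 0.679 over all other tested genes. Their own log2 differences were 1.12, 1.06 and 1.21. Such genes were picked as the nearest of all tested genes, on profiles that hold the group difference. Their small distances and like differences thus follow from the choice, and the same holds for Hdac5. Nearest to Hdac5 were 3110083C13Rik, Chga and Tle6, at distances of 0.0589, 0.0950 and 0.0955 beside a median of 0.564. The level of 3110083C13Rik was low, at 1.78 ± 0.597 TPM at ZT20 and 1.09 ± 0.914 TPM at ZT8, with 0.0936 TPM in ZT8 replicate 2. At such levels the pseudocount of 1 shapes the profile. Chga, which encodes chromogranin A of dense-core vesicles, was at 153, 98.6, 141 and 136 TPM at ZT20 and at 120, 53.3 and 140 TPM at ZT8, so it shares with Hdac5 the low values in replicate 2 of each group.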

How the data were processed

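The authors deposited TPM per gene for 7 samples, 1 column each, with 0 per-sample columns left unused. Per the submitters' processing notes, FastQC 0.11.9, Trim Galore 0.6.6, Salmon 1.6.0, DESeq2 1.34.0 and GRCm39 were used; the annotation release and the way transcripts were summed are not given in the sources used here. Per the labels' protocols, the libraries were made with a kit for single cells or low RNA input.

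Values were analysed as log2(TPM + 1) for the 14800 genes whose mean reached 1 TPM, with limma 3.58.1 (R 4.3.3, lmFit and eBayes with an intensity trend, two-sided, Benjamini-Hochberg). Simulated data with 200 of 14800 genes changed by 1.5 (log2) gave 63% recovered and 2.33% false calls. The simulated noise was independent between genes and held no trend with length, and the change was larger than that of any member. These rates therefore check the code and do not describe the test on the members. Ratios used an exact permutation test. GENCODE M21 gave transcript length and GC content for 99.6% of tested genes by gene ID; the correction is a loess (span 0.3) per sample. Promoters are from RefSeq GRCm38.p6, and 14745 genes had a length. Short or antisense genes annotated over Kat2b, Crebbp, Ep300, Hdac4, Hdac5 and Hdac9 leave their reads uncertain. Figures used matplotlib 3.10.9.

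Members and lists were chosen with earlier results of these data known. Text names all members; up to 4 called genes per list, otherwise the 2 highest and 2 lowest differences among them; and the 3 nearest profiles to Crebbp and Hdac5. Some genes under this rule are not reported here. Replicate numbers occur in both groups; deviations of same-numbered samples had Pearson's r of −0.0141, 0.153 and 0.083, so they were not taken as pairs.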

Additional observations from a re-analysis of the deposited data

Results flagged for a closer look

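Among 46 results examined in the ZT20 group, 2 had 1 sample far from the other 3 by a test of the gap to its nearest neighbour, and chance gives about 2.3 (1 in 20). The Ncoa2 level of 5.86 TPM in ZT20 replicate 1 was below the others of its group, which had 7.02 to 7.23 TPM. The Sirt6 level of 16.9 TPM in the same sample was above the others, which had 13.1 to 13.7 TPM. No member of the acetyltransferase and deacetylase set was among them, and the ZT8 group of 3 samples was not tested.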

How the results depend on the processing

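Crebbp kept its sign in all 20 alternatives (0.40 to 1.65) and Hdac1 in all 20 (−0.73 to −0.30); limma called them in 13 and 5 of them. The deposited values gave 2433 calls over all genes (1899 higher, 534 lower), 2 members (1 higher, 1 lower) and 30 other acetylation genes (27 higher, 3 lower). In the same order, calls were 3899 (2982, 917) with array weights, where members higher were 2 and list genes lower 5. They were 1304 (528 higher), 0 members (0, 0) and 13 (7, 6) with the length and GC correction, and 1165 (898, 267), 1 (lower 0) and 12 (10 higher) with the neuronal covariate. With no filter they were 1178 (978, 200), 1 (lower 0) and 16 (16, 0). Median-ratio scaling split the genes into 1128 higher and 1160 lower, with 8 list genes lower. Quantile normalization gave 1023 higher and 814 lower, 1 member (0 higher) and 16 list genes higher. Without an intensity trend 332 genes were lower, members were 2 higher and 0 lower, and list genes lower were 0. Without ZT20 replicates 3 and 4, and without 2, 3 and 4, limma called 0 genes in every set, with 2425 and 1133 of all genes (2 and 0 members) at an unadjusted p under 0.05. Leaving out 1 sample gave 624 to 3055 calls (543 to 2374 higher, 81 to 681 lower), 0 to 2 members (0 to 2 higher, 0 to 0 lower) and 5 to 38 list genes (5 to 35 higher, 0 to 3 lower), the fewest without ZT20 replicate 3.

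Replicate numbers did not pair the samples. With a replicate block the calls were 1174 (891, 283), 1 member (0 lower) and 12 list genes (11, 1), with 0 of the other acetyltransferases, and with the block and the length and GC correction 520 (231, 289), 0 members (0, 0) and 3 list genes (1 higher).

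These signs turned. Ep300 was at 0.42 with array weights, 0.36 without ZT20 replicates 2, 3 and 4, 0.85 with the neuronal covariate, 0.042 with a pseudocount of 0.1, and −0.32 to 0.48 with 1 sample left out (0.14 without ZT20 replicate 2, 0.48 without ZT8 replicate 2). Hdac3 was at −0.056 without ZT20 replicates 3 and 4, −0.24 with the length and GC correction and −0.24 with the block too, −0.20 under median-ratio scaling, −0.27 with the covariate, −0.0091 under quantile normalization, and −0.0015 and −0.055 without ZT20 replicate 3 or ZT8 replicate 2. With the length and GC correction, and then with the block too, Kat2b was at −0.18 and −0.14, Hdac4 at −0.23 and −0.044, and Hdac5 at −0.13 and −0.15. With the covariate, Kat2a was at −0.27, Hdac5 at −0.64, 3110083C13Rik at −0.55, Chga at −0.62 and Tle6 at −0.40. Under quantile normalization Kat2b was at −0.045 and 3110083C13Rik at −0.022. The Hdac4 to Hdac5 ratio difference was −0.092 with the correction, −0.055 under quantile normalization and −0.26 to 0.40 with 1 sample left out; Hdac9 to Hdac5 spanned −0.25 to 0.81 and Kat2a to Kat2b −0.060 to 0.79. The cause was not tested. At a minimum of 5 TPM, Ep300 and Kat2b had no value. Depth is unknown, so no limit of detection can be given for the low members Ep300 and Kat2b.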
